A study of Mus musculus with 4 samples.

Results

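Keratins are the intermediate filament proteins of epithelial cells. A type I (acidic) keratin pairs with a type II (basic) keratin to build a filament, and each epithelium carries its own pairs: Krt5 with Krt14 in the basal layer of stratified epithelium, Krt1 with Krt10 in the cornifying layers above it, Krt4 with Krt13 in the lining of the mouth, and Krt8 with Krt18 in simple and glandular epithelium. Osteoblasts, osteocytes and marrow cells are not epithelial, and their main cytoplasmic intermediate filament protein is vimentin.

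The keratin genes were taken as all array probes, controls excluded, whose gene name in the scanner files was Krt followed by a digit, which leaves out the keratin-associated proteins (Krtap). This gave 50 probes for 42 genes, out of 41076 probes and 27554 genes with a value, with 23 of the 42 genes on chromosome 11 and 19 on chromosome 15. Of the 42, 34 genes had 1 probe and 8 had several, and for those the probe with the highest mean signal stood for the gene. The probe named Krt83 in the files carries the accession of the gene now called Krt87 and is given here as Krt83.

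Total RNA came from the maxilla and the mandible (jaw bones) and from the ilium and the femur (bones of the trunk and limb) of male C57BL/6 mice aged 35 days. All 4 are native bones of mice with no treatment stated for these samples, and each bone was measured on 1 Agilent whole mouse genome array in 1 colour. The labels do not give the number of animals per bone, and they do not state whether teeth, gum or nasal lining were removed from the jaws. Levels are log2 values with the 75th percentile of their array at 0, and levels of different probes are not set against each other. The summed signals of marker lists add linear levels over probes, so the brightest probes weigh most in them. A probe that the scanner program did not flag as well above background on an array is called dim there, and it may still carry some signal.

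All 4 samples carried the bone markers Bglap, Ibsp, Dmp1, Col1a1 and Alpl well above background. No spot was saturated, from 72.8% to 75.5% of spots were well above background, and the median log2 SD between repeated spots of a probe, a technical error, was 0.0572 to 0.0724. All 3 blood lineage markers with a value were called lower in the jaw bones. Markers of other epithelia differed among the samples. The summed linear signal of 5 enamel organ markers was 77.5 in the maxilla and 209 in the mandible, against 0.303 in the ilium and 0.171 in the femur. That of 6 glandular and nasal markers was 519 in the maxilla, while the mandible had 0.49, the ilium 0.47 and the femur 0.0748. Of 8 markers of stratified epithelium other than keratins, 7 were well above background in the maxilla and 6 in each of the other bones, with summed signals of 46.0 in the maxilla and 36.3 in the mandible, against 4.54 in the ilium and 4.80 in the femur. Most of the ilium and femur sums came from 1 gene, Sfn, at log2 levels of 2.00 and 2.06 there. Of the 6 tested, Sfn was 1.47-fold higher in the jaw class, and the others ranged from 22.1-fold (Lgals7) to 78.8-fold (Trp63).

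Keratin genes were detected in all 4 samples, more of them in the jaw. Of the 42 genes, 34 (81.0%) were well above background in the maxilla and 31 (73.8%) in the mandible, against 20 (47.6%) in the ilium and 23 (54.8%) in the femur. Over all 27554 genes the shares were 73.8% and 72.1% in the 2 jaw bones, against 71.5% and 74.7% in the ilium and femur. On all 4 arrays 18 keratin genes were well above background, 6 in both jaw bones and neither other bone, 6 in the maxilla alone and 1 (Krt36) in the mandible alone. The other patterns held 4 genes seen in both jaw bones and 1 other bone, 2 in the mandible and 1 other bone, 1 (Krt34) in the femur alone, and 4 (Krt26, Krt33a, Krt35 and Krt42) on no array.

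**Figure D1:**
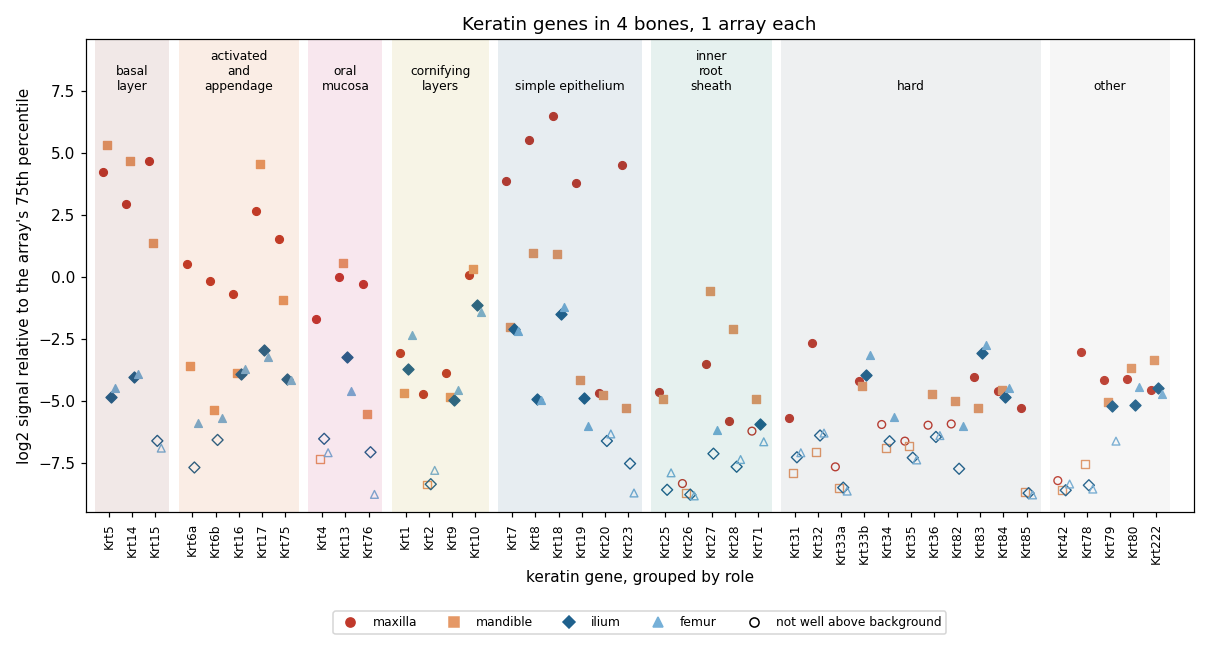
Level of each of the 42 keratin genes (log2 level, 75th percentile of the array at 0, y axis) in the maxilla, mandible, ilium and femur, with genes grouped by role along the x axis; each point is 1 array, and open symbols are dim values. The jaw points lie far above the ilium and femur for Krt5, Krt14, Krt15, Krt17 and Krt8, and the maxilla stands apart from the 3 other bones for Krt7, Krt19 and Krt23.

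The start regions of keratin genes that the results turn on are shown for the basal pair, the simple pair, 3 inner root sheath genes (Krt25, Krt27 and Krt28) and 3 more of the genes described (Krt76, Krt10 and Krt7). A RefSeq promoter table (build GRCm38.p6) held entries for 28 of the 42 genes, and the 60 bases before the annotated start were searched on both strands for TATAAA and for ATAAAAG, which overlap in TATAAAAG; the second motif was chosen after the sequences were seen. TATAAA was found in 12 of the 28 genes, against 3.92% of 32851 promoters. ATAAAAG was found in 11, and since it was picked from these sequences its share of all promoters (1.57%) is no fair comparison. At least 1 motif was found in 5 of 5 inner root sheath, 6 of 7 hard, 2 of 2 mouth lining, 2 of 5 simple, 1 of 2 basal, 1 of 3 cornifying, 1 of 1 activated and 1 of 3 other genes. These counts include ATAAAAG, so the share of all promoters with either motif (4.78%) is no fair comparison for them. Sequences run 5′ to 3′ on the gene's strand and end at the base before the start, with matches to either motif in capitals. A match is a description of the letters and not a shown binding site.
Krt5: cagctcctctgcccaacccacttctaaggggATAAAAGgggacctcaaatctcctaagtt
Krt14: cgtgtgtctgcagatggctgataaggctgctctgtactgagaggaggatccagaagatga
Krt76: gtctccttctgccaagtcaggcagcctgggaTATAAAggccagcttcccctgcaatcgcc
Krt10: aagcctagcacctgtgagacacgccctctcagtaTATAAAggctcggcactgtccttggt
Krt7: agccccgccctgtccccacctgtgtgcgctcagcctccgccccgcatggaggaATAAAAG
Krt8: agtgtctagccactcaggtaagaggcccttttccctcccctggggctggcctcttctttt
Krt18: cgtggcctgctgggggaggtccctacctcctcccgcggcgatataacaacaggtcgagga
Krt25: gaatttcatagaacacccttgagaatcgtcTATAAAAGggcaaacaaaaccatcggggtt
Krt27: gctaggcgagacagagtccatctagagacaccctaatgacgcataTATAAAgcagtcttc
Krt28: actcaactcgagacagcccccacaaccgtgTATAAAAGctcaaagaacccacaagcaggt
The windows are, on the minus strand, chr15:101712906-101712965 for Krt5, chr11:100206031-100206090 for Krt14, chr15:101892921-101892980 for Krt76, chr11:99389365-99389424 for Krt10, chr15:102004343-102004402 for Krt8, chr11:99322952-99323011 for Krt25, chr11:99351119-99351178 for Krt27 and chr11:99374904-99374963 for Krt28. On the plus strand they are chr15:101412343-101412402 for Krt7 and chr15:102028156-102028215 for Krt18. The match began 30 bases before the start in Krt25 and Krt28, 29 in Krt5 and Krt76, 26 in Krt10, 15 in Krt27 and 7 in Krt7.

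The first comparison asked how the jaw bones differ from the bones of the trunk and limb, the contrast in the study's title. Keratin genes were higher in the jaw bones or not called, and none was called lower. By limma across all 20583 genes well above background on at least 2 arrays, with Benjamini-Hochberg adjustment and a threshold of 0.05, 8 of the 30 tested keratin genes were higher in the jaw, where 4.48% of all genes were. They were Krt5, Krt14, Krt15, Krt17, Krt13, Krt10, Krt20 and Krt25, that is 3 of 3 basal genes and at most 1 gene of any other role. No tested keratin gene was called lower, against 7.23% of all genes, with 1 (Krt83) at an unadjusted p under 0.05. The median difference of the 30 was 3.42 on the log2 scale, beside -0.03 for all tested genes, and 27 had a positive difference, beside 48.7% of all.

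A gene seen in the jaw alone could enter this test only by being higher there, and 6 of the 30 tested keratin genes were of that kind. Of the 8 called, Krt15, Krt20 and Krt25 were among them. Over all 42 keratin genes the median difference was 1.65. Over the 18 well above background on all 4 arrays it was 2.30, beside -0.04 for 18375 such genes, and 5 of the 18 were called higher, beside 3.81% of the 18375. Counted without a test, 16 of the 30 had a lower jaw value that exceeded the higher of the ilium and femur by a log2 value of 1 or more (2-fold), where 9.3% of all tested genes did. Among the 18 seen on all 4 arrays, 8 did, beside 7.78% of the 18375. The reverse held for 0 of the 30, where 9.8% of all tested genes were lower by that rule.

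The test takes its error from how far the 2 bones of a class lie apart (2 residual degrees of freedom), not from animals, and fewer epithelial cells and less keratin RNA per cell cannot be told apart in such samples. The count of 8 was 15 without the maxilla, 20 without the mandible, and 0 without the ilium or without the femur, where 11 keratin genes had an unadjusted p under 0.05 in each case. Over all 20583 genes the calls higher in the jaw moved likewise, with 2944 without the maxilla, 4030 without the mandible and 0 without the ilium or the femur, beside 923 with all bones. A fit without a jaw bone keeps 1 jaw array, assumed to vary like the ilium and femur, and so holds no spread within the jaw.

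**Figure D2:**
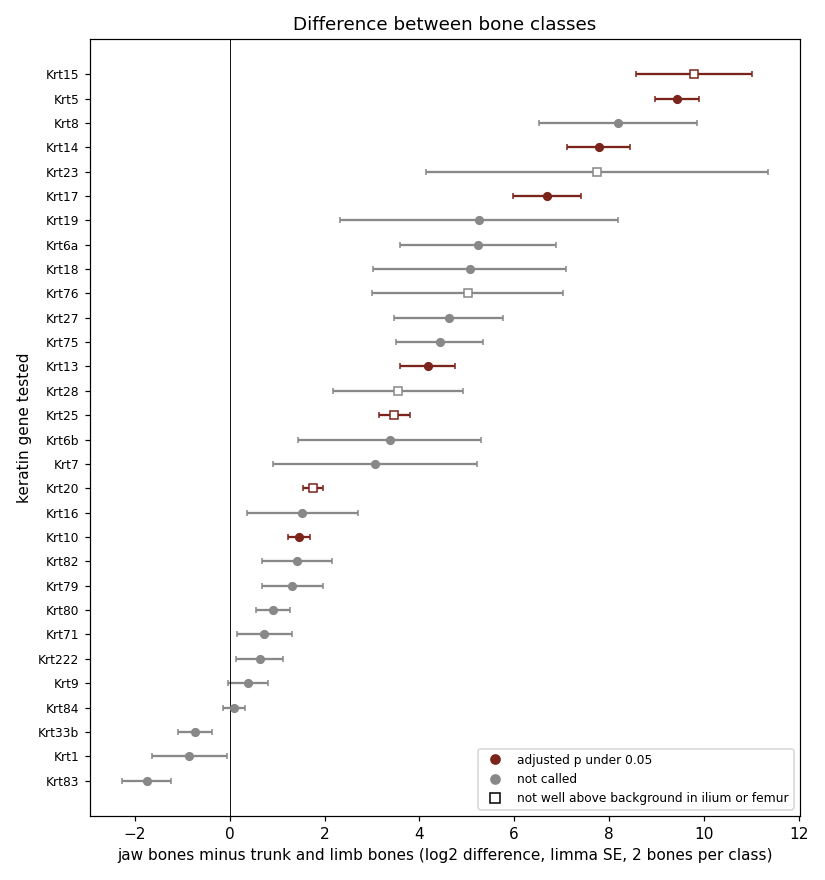
Difference between the jaw bones and the trunk and limb bones for the 30 tested keratin genes (x axis, log2 difference; points are limma estimates, bars the SE over 2 bones per class; genes run down the y axis). The 8 genes with an adjusted p under 0.05 lie between 1.46 and 9.78, and genes with as large a difference but an uncalled test, such as Krt8 and Krt23, have long bars and a wide gap between maxilla and mandible.

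Basal keratins were higher in both jaw bones, and with Krt17 they had the largest differences among the called keratin genes. Krt5, the type II keratin of the basal layer (probe on chromosome 15, 101535117 to 101535176, build mm8), stood at 4.22 in the maxilla and 5.31 in the mandible, against -4.86 in the ilium and -4.47 in the femur. Its partner Krt14 (chromosome 11, 100019459 to 100020064) stood at 2.94 and 4.67 in the maxilla and mandible, against -4.05 and -3.91 in the ilium and femur. Krt15, a type I keratin of basal cells that also marks hair follicle stem cells, stood at 4.67 in the maxilla and 1.37 in the mandible and was dim in the ilium (-6.61) and femur (-6.91). The jaw and non-jaw values of these genes did not overlap, and the gap between the classes exceeded the distance between the 2 bones of either class.

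The difference was 9.43 ± 0.46 for Krt5 (SE, n = 2 bones per class; 689-fold, limma adjusted p = 0.0327), 7.78 ± 0.66 for Krt14 (220-fold, adjusted p = 0.0327) and at least 733-fold for Krt15 (adjusted p = 0.0344). An "at least" fold is taken against the lowest signal well above background on the dim arrays, or the gene's own signal where that was higher. The adjusted p printed beside such a fold is for the measured difference, dim values included, and does not test the fold. The value 0.0327 was the smallest adjusted p of any gene. Within the jaw, Krt5 and Krt14 were 2.12- and 3.33-fold higher in the mandible and Krt15 was 9.87-fold higher in the maxilla, each from 1 array per bone. The summed signal of the enamel organ markers was also higher in the mandible, and its part in these values was not tested.

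Keratins of activated epithelium and skin appendages split within the jaw. Krt17, which marks appendage epithelium and wounded skin, followed the basal pair: 2.66 in the maxilla and 4.55 in the mandible, against -2.96 in the ilium and -3.22 in the femur. It was 104-fold higher in the jaw (6.69 ± 0.72, adjusted p = 0.0327), and it was 3.72-fold higher in the mandible than in the maxilla. Krt6a, Krt6b and Krt16, induced together in wounded epithelium and present in the lining of the mouth, were brightest in the maxilla instead.

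Krt6a stood at 0.51 in the maxilla and -3.61 in the mandible, against -5.88 in the femur, and was dim in the ilium (-7.69). Krt6b stood at -0.17 in the maxilla and -5.37 in the mandible, against -5.71 in the femur and a dim -6.58 in the ilium. Krt16 stood at -0.70 in the maxilla, while the mandible (-3.86), ilium (-3.91) and femur (-3.72) lay close together. For these 3 genes the class differences of 5.24 ± 1.65, 3.37 ± 1.93 and 1.53 ± 1.17 were not called (limma adjusted p = 0.122, 0.30 and 0.416). Krt6a and Krt6b are near-identical copies, so their probes may not tell them apart.

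Krt75, a keratin of the hair follicle companion layer that is also made in the enamel organ, stood at 1.53 in the maxilla and -0.94 in the mandible, against -4.12 in the ilium and -4.15 in the femur. The classes did not overlap, but the difference of 4.43 ± 0.92 was not called (limma adjusted p = 0.0629). With 1 bone left out, the Krt75 difference was 3.19 without the maxilla, 5.66 without the mandible, 4.44 without the ilium and 4.41 without the femur.

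Among keratins of the mouth lining, gum and palate, Krt13 was higher in the jaw by its brighter probe. That probe (chromosome 11, 99937247 to 99937306) stood at -0.023 in the maxilla and 0.54 in the mandible, against -3.22 in the ilium and -4.61 in the femur, and differed by 4.17 ± 0.58 (18.0-fold, limma adjusted p = 0.0368). The second Krt13 probe (chromosome 11, 99935486 to 99935724) stood at -0.36 in the maxilla and was dim in the mandible (-6.38), the ilium (-6.75) and the femur (-7.00). The probes thus disagree by more than 6 on the log2 scale about the contrast between the jaw bones, and with the mean of both the class difference was 3.84 and not called (adjusted p = 0.0998). The call of the brighter probe was also lost with no filter on background (limma adjusted p = 0.0516).

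Krt4, the type II partner of Krt13, was well above background in the maxilla (-1.71) and not in the mandible (-7.34), ilium (-6.53) or femur (-7.09). It therefore matched the second Krt13 probe in where it was seen, and it was too rarely detected to be tested. Krt76, a type II keratin of the palate and gum, stood at -0.30 in the maxilla and -5.51 in the mandible and was dim in the ilium (-7.07) and femur (-8.77). It was at least 12.0-fold higher in the jaw class without a call (limma adjusted p = 0.18).

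Of the 4 keratins of the cornifying layers 3 were tested, and 1 was called. Krt10, the type I keratin of these layers, stood at 0.063 in the maxilla and 0.31 in the mandible, against -1.14 in the ilium and -1.40 in the femur, and was 2.75-fold higher in the jaw (1.46 ± 0.23, limma adjusted p = 0.0429). That call was lost with median centring (1.21, adjusted p = 0.0895) and with quantile normalization (1.42, adjusted p = 0.0506), and the second Krt10 probe gave a smaller difference of 0.42. The Krt10 call was also lost with no filter on background, the deposited series table and the mean over probes (limma adjusted p = 0.0642, 0.0896 and 0.0635). Its partner Krt1 stood at -3.06 in the maxilla and -4.67 in the mandible, against -3.70 in the ilium and -2.33 in the femur, with overlapping classes and no call (-0.85 ± 0.79, limma adjusted p = 0.498).

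The second Krt1 probe turned that sign. It stood at -4.06 in the maxilla and -5.24 in the mandible and was dim in the ilium (-7.98) and femur (-7.41). Krt9, a keratin of footpad skin, stood at -3.90 in the maxilla and -4.87 in the mandible, against -4.95 in the ilium and -4.57 in the femur (0.38 ± 0.42, adjusted p = 0.569 by limma). Krt2, a late keratin of cornifying skin, was well above background in the maxilla (-4.71) and not in the mandible (-8.37), ilium (-8.36) or femur (-7.81). Of 4 cornified envelope markers with a value, 2 (Lor and Sprr1a) were well above background in every bone, and the others (Ivl and Sprr1b) in none. Their summed signal was 4.04 in the maxilla and 0.744 in the mandible, against 0.28 in the ilium and 0.239 in the femur. Lor, the main protein of the cornified envelope, stood at 1.14 in the maxilla and -0.52 in the mandible, against -3.00 in the ilium and -3.21 in the femur, and was not called (3.42 ± 0.64, limma adjusted p = 0.0538). Sprr1a stood 44.5-fold higher in the maxilla than it did in the mandible. The part of cornifying epithelium in the keratin values was not tested.

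**Figure D3:**
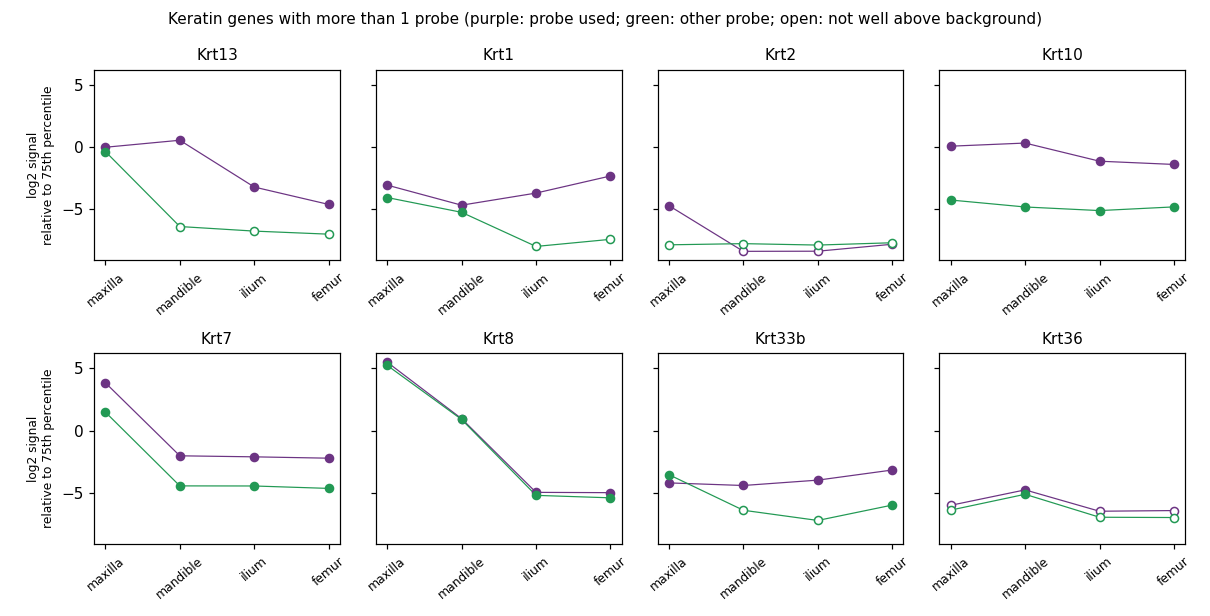
Level of each probe (log2 level, 75th percentile of the array at 0, y axis) in the 4 bones for the 8 keratin genes with more than 1 probe; purple is the probe used, green the other, and open symbols are dim values. Lines join values of 1 probe only to guide the eye. The probes of Krt7, Krt8 and Krt36 run in parallel, while those of Krt13, Krt1, Krt2 and Krt33b do not.

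Simple epithelial keratins were brightest in the maxilla. Krt8 (probe on chromosome 15, 101824949 to 101825008) stood at 5.51 in the maxilla and 0.97 in the mandible, against -4.94 in the ilium and -4.97 in the femur. Its partner Krt18, the type I keratin that lies beside it on chromosome 15 (101859944 to 101860003), stood at 6.49 in the maxilla and 0.93 in the mandible, against -1.49 in the ilium and -1.22 in the femur. Both genes had classes that did not overlap, with differences of 8.19 ± 1.67 and 5.06 ± 2.04 that were not called (limma adjusted p = 0.0606 and 0.181). Krt8 was called with median centring (7.94, limma adjusted p = 0.0491). Its difference was 5.93 without the maxilla, 10.46 without the mandible, 8.21 without the ilium and 8.18 without the femur.

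Krt7, Krt19 and Krt23, keratins of ductal and other simple epithelium, set the maxilla apart more sharply. Krt7 stood at 3.85 in the maxilla, while the mandible (-2.01), ilium (-2.09) and femur (-2.20) lay close together. Krt19 stood at 3.78 in the maxilla and -4.16 in the mandible, against -4.90 in the ilium and -6.01 in the femur. Krt23 (chromosome 11, 99294169 to 99294228) stood at 4.52 in the maxilla and -5.28 in the mandible and was dim in the ilium (-7.53) and femur (-8.72). For Krt7 and Krt19 the mandible lay nearer to the ilium than to the maxilla, and the class differences of the 3 genes were not called (limma adjusted p = 0.38, 0.29 and 0.225).

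Krt20, the keratin of intestinal and urothelial surface cells and of Merkel cells, was the member of this set that was called. It stood at -4.68 in the maxilla and -4.77 in the mandible and was dim in the ilium (-6.62) and femur (-6.34), a fold of at least 3.20 (limma adjusted p = 0.0341). With another background correction (normexp) the difference was 0.66 and was not called (adjusted p = 0.108). The Krt20 call was also lost with no filter on background (limma adjusted p = 0.0505).

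Inner root sheath keratins, named for the sheath around the growing hair, were also seen in the jaw bones. Krt25 stood at -4.64 in the maxilla and -4.91 in the mandible and was dim in the ilium (-8.59) and femur (-7.90), at least 3.29-fold higher in the jaw (limma adjusted p = 0.0327; with normexp 0.79, adjusted p = 0.103). Krt27 stood at -3.52 in the maxilla and -0.55 in the mandible, against -6.17 in the femur and a dim -7.13 in the ilium (4.62 ± 1.15, adjusted p = 0.0834). Krt28 stood at -5.82 in the maxilla and -2.11 in the mandible and was dim in the ilium (-7.66) and femur (-7.37), at least 5.77-fold higher in the jaw without a call (adjusted p = 0.17).

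Each of these 3 type I genes had jaw values above both other bones. Their type II partner Krt71 stood at -4.92 in the mandible, against -5.95 in the ilium, and was dim in the maxilla (-6.22) and femur (-6.65), so the classes overlapped (0.73 ± 0.57, limma adjusted p = 0.425). Krt26 was dim in all 4 bones. The TATAAA letters were found in every gene of this role, Krt26 and Krt71 included. No gene of this role lacked them, so a relation to the level in the jaw could not be assessed. Of 6 hair follicle markers other than keratins, 5 were tested. Msx2 and Tchh, the trichohyalin of inner root sheath cells, were called higher in the jaw, where 4.48% of all tested genes were. Gata3 (1.17), Foxn1 (0.17) and Lef1 (-0.44) were not called. The summed signal of the 6 was 1.80 in the maxilla and 5.56 in the mandible, against 1.17 in the ilium and 1.36 in the femur. Most of the mandible sum came from Msx2, and most of the ilium and femur sums from Lef1. Msx2 stood at -1.34 in the maxilla and 1.96 in the mandible and was dim in the ilium (-7.11) and femur (-8.27). Tchh stood at -1.94 in the maxilla and -2.17 in the mandible, against -4.77 in the ilium and -5.09 in the femur (2.88 ± 0.24, adjusted p = 0.0327 by limma). Hoxc13, a regulator of hair keratins, was dim in both jaw bones and the ilium and well above background in the femur (-5.31). The part of hair-bearing skin in the keratin values was not tested.

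Hard keratins, which build hair, nail and the papillae of the tongue, gave 11 members, 4 of them tested and 0 called (1, Krt83, at an unadjusted p under 0.05). Krt32 (-2.65), Krt85 (-5.29) and Krt31 (-5.71) were well above background in the maxilla and in no other bone. Krt36, a keratin of tongue papillae, was seen in the mandible at -4.74 by 1 probe and -5.10 by the other, and in no other bone. Krt82, a hair cuticle keratin, was seen in the mandible (-4.99) and femur (-6.03) and not in the maxilla (-5.93) or ilium (-7.74).

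Of the 30 tested keratin genes, Krt83 had the most negative class difference, without a call. It stood at -4.02 in the maxilla and -5.30 in the mandible, against -3.05 in the ilium and -2.76 in the femur, and differed by -1.75 ± 0.51 (limma adjusted p = 0.108). Its difference was -2.39 without the maxilla, -1.11 without the mandible, -1.90 without the ilium and -1.61 without the femur. Krt33b stood at -4.18 and -4.39 in the maxilla and mandible, against -3.96 and -3.15 in the ilium and femur (-0.73 ± 0.36, limma adjusted p = 0.243), and its second probe had the opposite sign at 1.63. Krt34 was well above background in the femur alone (-5.66). Krt84 lay between -4.85 and -4.50 in all 4 bones. Hair keratins are close copies of each other, and a probe outside the name rule that carries the accession of Krt86 stood at -4.31 in the maxilla and -5.47 in the mandible, against -3.09 in the ilium and -2.90 in the femur, in the same order of bones as Krt83.

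The remaining 5 keratins had 3 tested members and 0 called, with 0 at an unadjusted p under 0.05. Krt78, a keratin of stratified epithelium, was well above background in the maxilla (-3.04) and not in the mandible (-7.55), ilium (-8.41) or femur (-8.56). Krt79, found in the ducts of sebaceous glands, stood at -4.15 in the maxilla and -5.03 in the mandible, against -5.20 in the ilium and a dim -6.63 in the femur. Krt80 stood at -4.12 and -3.68 in the maxilla and mandible, against -5.16 and -4.45 in the ilium and femur. Krt222, a divergent keratin-like gene, stood at -4.58 and -3.35 in the maxilla and mandible, against -4.47 and -4.71 in the ilium and femur. The differences of 1.32 ± 0.64, 0.90 ± 0.36 and 0.63 ± 0.49 for Krt79, Krt80 and Krt222 were not called (limma adjusted p = 0.238, 0.177 and 0.429).

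The maxilla and the mandible were then set against each other, with 1 array each and therefore no test. Keratin genes stood mostly higher in the maxilla. Of the 37 keratin genes well above background in at least 1 of these bones, 17 were at least 4-fold higher in the maxilla by measured signal, where 8.95% of 21050 genes were, and 2 were at least 4-fold higher in the mandible, where 2.48% were. The median absolute difference of the 37 was 2.19 on the log2 scale, beside 0.48 for all 21050. With dim values set to their bound, a count added after seeing the data, 14 genes were at least 4-fold higher in the maxilla and 2 in the mandible.

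Simple epithelial keratins led the genes higher in the maxilla, with 5 of 6. Krt23 was 887-fold higher there than in the mandible, Krt19 246-fold, Krt7 58.1-fold, Krt18 47.1-fold and Krt8 23.2-fold. Both probes of Krt8 (4.54 and 4.34 on the log2 scale) and of Krt7 (5.86 and 5.92) gave nearly the same difference. The simple keratin outside this set, Krt20, differed by 0.09. Glandular and nasal markers moved with these genes, 6 of 6 being well above background in both jaw bones and 0 called between the classes (0 at an unadjusted p under 0.05 by limma), with Dcpp1 at 4.16, Reg3g at 7.23 and Muc5b at 2.67 in the maxilla, against -5.33, -2.68 and -4.20 in the mandible. Their part in the keratin values was not tested.

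Of the mouth lining keratins 2 of 3, and of the activated and appendage keratins 4 of 5, were also at least 4-fold higher in the maxilla, the exceptions being Krt13 by the probe used and Krt17. Krt76 was 37.1-fold higher there, Krt6b 36.7-fold, Krt6a 17.4-fold, Krt16 8.92-fold and Krt75 5.56-fold. Krt4, dim in the mandible, was at least 25.9-fold higher in the maxilla, and Krt32, Krt78, Krt2, Krt85 and Krt31 were at least 13.4-, 10.3-, 3.23-, 2.16- and 1.61-fold higher there by the same bound. For the last 3 the bound is under 4-fold, and the second Krt2 probe was dim in both jaw bones.

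Fewer keratin genes stood higher in the mandible. Krt28 was 13.1-fold and Krt27 7.80-fold higher in the mandible, and both are inner root sheath keratins. Krt17, Krt14, Krt222 and Krt5 came next among genes well above background in both bones, at 3.72-, 3.33-, 2.35- and 2.12-fold. When arrays were centred on their median, 4 keratin genes were at least 4-fold higher in the mandible in place of 2. The enamel proteins Ambn, Enam and Mmp20 stood at 4.51, 0.51 and -0.72 in the maxilla, against 6.98, 3.48 and 2.27 in the mandible, and thus moved with the same direction as these keratins; their part was not tested.

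**Figure D4:**
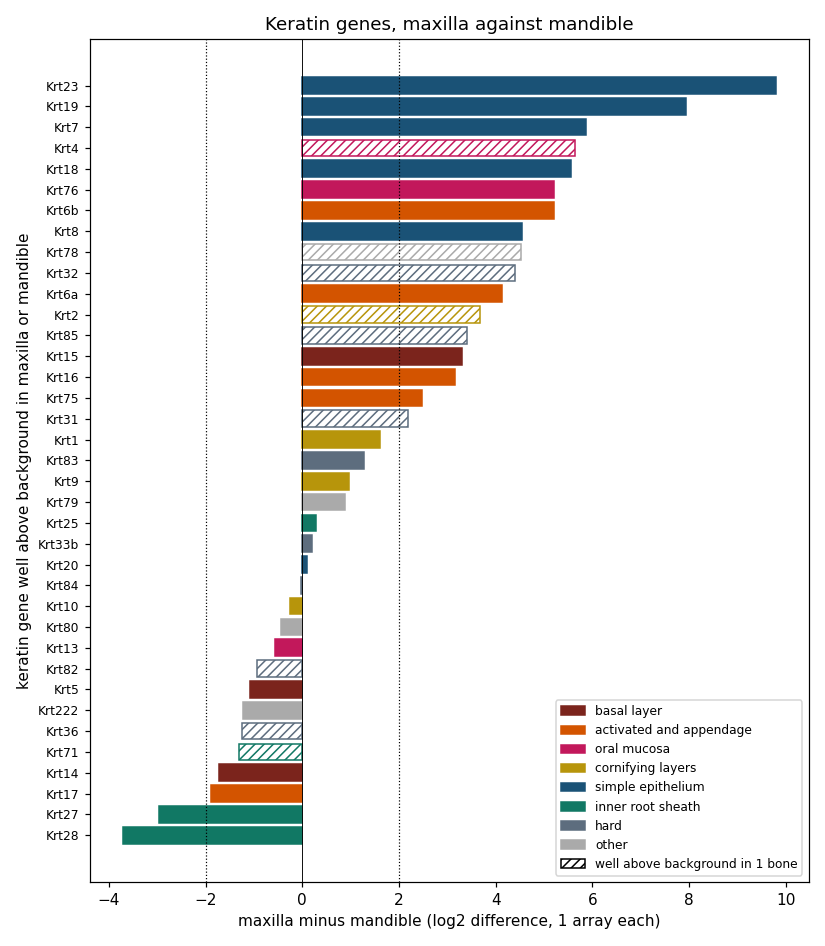
Maxilla minus mandible (x axis, log2 difference, 1 array each) for the 37 keratin genes well above background in at least 1 jaw bone, coloured by role; hatched bars are genes well above background in 1 of the 2 bones, and dotted lines mark a 4-fold difference. The top 3 bars are the simple epithelial keratins Krt23 (9.79), Krt19 and Krt7, and Krt27 and Krt28 are the bars past 4-fold on the mandible side.

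Partner keratins can be read side by side from these values. The maxilla minus mandible difference was -1.09 for Krt5 and -1.73 for Krt14, 4.54 for Krt8 and 5.56 for Krt18, 5.63 for Krt4 (dim in the mandible) and -0.56 for Krt13, and 1.61 for Krt1 and -0.25 for Krt10. Partners of the basal and of the simple pair had the same sign. In the other pairs the sign turned on the probe for Krt13 and Krt10, whose second probes gave 6.02 and 0.56. The second Krt1 probe kept its sign at 1.19.

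The ilium and the femur were compared in the same way. None of the 25 keratin genes well above background in at least 1 of them differed 4-fold, where 0.987% of 20865 genes did, so the count of 0 does not set keratins apart, and no test was possible with 1 array each. For the 18 seen in both, the median absolute difference was 0.28, beside 0.18 for all 19437 such genes. The largest of these was Krt13, at -3.22 in the ilium and -4.61 in the femur, and next came Krt1, at -3.70 in the ilium and -2.33 in the femur. Krt18 (-1.49 and -1.22), Krt10 (-1.14 and -1.40) and Krt7 (-2.09 and -2.20) were well above background in both bones.

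Some genes that attach keratin filaments to cell junctions went with the basal keratins, and others did not. Of 15 such genes, 14 were tested, and 8 were called higher in the jaw, where 4.48% of all tested genes were. None was called lower (0 at an unadjusted p under 0.05), and the median difference was 2.68. Col17a1, a hemidesmosome collagen, stood at 0.96 in the maxilla and 3.02 in the mandible, against -5.89 in the ilium and -6.18 in the femur (8.03 ± 0.78, limma adjusted p = 0.0327). The desmosome genes Pkp1 and Dsp differed by 6.87 ± 0.58 and 6.27 ± 0.53, the envelope and desmosome linkers Evpl and Ppl by 4.49 ± 0.40 and 3.66 ± 0.64, and the hemidesmosome integrin Itgb4 by 3.76 ± 0.39, each with a limma adjusted p of at most 0.0489. Plec, a linker found in many cell types, stood at 0.72 in the maxilla and 1.20 in the mandible, against 1.55 in the ilium and 1.41 in the femur, and was not called (adjusted p = 0.254). Itga6 (-0.13), Tchp (-0.15), Dst (0.65) and Jup (1.31) were tested and not called either. Pkp2, also not called, stood at 1.13 in the maxilla and -2.39 in the mandible, against -1.81 in the ilium and -3.16 in the femur. Eppk1 was well above background in the maxilla alone.

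Intermediate filament genes outside the keratins did not share the keratin pattern as a list. Of 16 listed, 14 were tested, with a median difference of -0.36. Of these, 1 was called higher, where 4.48% of all tested genes were, and 1 lower, where 7.23% were. By the 2-fold size rule 2 were higher in the jaw (Nefl and Nes), where 9.3% of all tested genes were. By the same rule 2 were lower (Gfap and Lmnb1), where 9.8% were. Counts this small do not set the list apart from all genes. The neurofilament gene Nefl was called higher in the jaw, at -2.95 in the maxilla and -0.03 in the mandible and dim in the ilium (-7.99) and femur (-7.90), at least 32.1-fold (limma adjusted p = 0.0465). Gfap was called lower, at -5.51 in the mandible and a dim -6.31 in the maxilla, against -2.63 in the ilium and -2.20 in the femur (-3.49 ± 0.38, adjusted p = 0.0327). Vim, the filament of mesenchymal cells, stood at 5.11 in the maxilla and 5.64 in the mandible, against 5.11 in the ilium and 5.00 in the femur, and was not called (0.31 ± 0.27, adjusted p = 0.467).

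Keratin-associated proteins, the matrix of the hair shaft, gave 27 genes, of which 12 were tested. None was called higher in the jaw (0 at an unadjusted p under 0.05), where 4.48% of all tested genes were. Of the 4 lower at an unadjusted p under 0.05, 1 was called, where 7.23% of all tested genes were called lower. With 12 genes tested, these calls do not set the list apart from all genes. The gene called was Krtap21-1, at -6.36 in the mandible and a dim -6.21 in the maxilla, against -5.16 in the ilium and -5.14 in the femur (-1.14 ± 0.20, limma adjusted p = 0.0481). The median difference of the 12 was 0.03.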

How the data were processed

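Spot intensity values on a linear scale were made by the authors from scanned arrays (Agilent Feature Extraction, version 9.5.3.1 in the submitters' processing notes), and the processed signal was background-subtracted and spatially detrended, per the file headers. Flags per spot (well above background, saturated, outlier) carry no other score. The deposited series table holds log2 ratios to the ilium array, made in GeneSpring per the series description, with an unstated constant per array, and served as an alternative.

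Here log2 processed signal minus the array's 75th percentile was used, spots of a probe were averaged, probes with an outlying spot were left out, and the brightest probe stood for a gene. Genes were named through a RefSeq table (GRCm38.p6), keratins by the file's name. Jaw bones were set against trunk and limb bones with limma 3.58.1 in R 4.3.3, tested on simulated data. Single bones were compared by size (4-fold). Genes named are those called, at least 4-fold apart between single bones, lower in the jaw, or among the 4 with the largest class difference of a role. The members and lists were chosen with earlier results of these data known. Probe positions are in mm8; sequences are RefSeq GRCm38.p6.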

Additional observations from a re-analysis of the deposited data

How the results depend on the processing

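The count of 8 keratin genes called higher in the jaw was 5 with no filter on background and 5 with genes well above background on all 4 arrays, which removes keratins not seen in the ilium or femur. The count was 7 with quantile normalization, 6 with normexp and 6 with the mean over a gene's probes. It ran from 0 to 20 when 1 bone was left out, and the count called lower from 0 to 1. Over all genes the same fits called from 0 to 4030 higher and from 0 to 4139 lower. The 16 genes separating the classes were 10 with normexp background correction and 8 with the filter on all 4 arrays. The median difference of 3.42 was 1.75 with normexp, 1.65 with no filter, 2.30 with the filter on all 4 arrays, 2.80 with dim bones at their bound (added after seeing the data), and from 1.80 (without the maxilla) to 3.58 when 1 bone was left out. The 2 genes at least 4-fold higher in the mandible were 4 with median centring, 4 with the series table and 1 with normexp. The sign turned for Krt84 under median centring (-0.16), the series table (-0.16) and quantile normalization (-0.24), and ran from -0.080 without the ilium to 0.27 when 1 bone was left out, for Krt1 (1.10) and Krt33b (0.45) with the mean over probes, and without the maxilla for Krt16 (-0.047, and 3.11 without the mandible) and Krt9 (-0.11, and 0.86 without the mandible). The causes were not tested. Median centring moved the median of all genes from -0.03 to -0.28. Over all genes, calls were 38.3% higher in the jaw, 27.0% with median centring and 27.1% with the series table. All genes gave 923 calls higher and 1488 lower, against 361 and 644 with no filter. No paired analysis was possible because each bone has 1 array. One array per bone and signals near background limit the precision of dim keratins.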

Other observations

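Beside Krt86, 3 array probes outside the name rule carry accessions that RefSeq now names as keratins. The Krt88 probe was well above background in all 4 bones, at -4.75 in the maxilla and -5.16 in the mandible, against -5.49 in the ilium and -5.23 in the femur. The Krt90 probe was well above background in the femur (-4.61) and not in the maxilla (-5.49), mandible (-6.11) or ilium (-6.15). The Krt12 probe, for the keratin of the cornea, was not well above background on any array. None of these enters a count given for the 42 keratin genes.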
